A study of Mus musculus with 12 samples.

Results

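The 39 cell cycle genes described here are those of 50686 genes in the liver count table whose Ensembl identifier carries 1 of 39 mouse symbols chosen for their textbook role. They comprise 6 G1/S regulators, 10 S phase genes of replication licensing and DNA synthesis, and 23 mitotic genes. The list was drawn up with earlier results of these data known, so that shares of all genes set beside its counts are a description only. FVB/N mice aged 6 to 8 weeks were injected in the tail vein with lipid nanoparticles that carried small interfering RNA (siRNA), at a dose of 0.5 mg/kg once in 5 days, and polyadenylated RNA of the ground livers was sequenced. The 4 groups of 3 libraries were Eif3m siRNA at day 9, scrambled luciferase siRNA (control) at day 9, Eif3m siRNA at day 13 and control at day 13. All 12 livers came from 1 strain and had received siRNA in nanoparticles, and the sources used here do not give the siRNA sequences. Eif3m encodes 1 of the subunits of translation initiation factor eIF3, which takes part in bringing the small ribosomal subunit to messenger RNA.

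A cell enters the cycle when cyclin D and its kinases, and then cyclin E, release E2F transcription factors, which switch on genes for the replicative helicase and DNA synthesis. Genes for mitosis follow later, under control of a repressor complex named DREAM and the activators B-MYB and FOXM1, which act through a short promoter element called CHR (cell cycle genes homology region). Most hepatocytes of an adult liver rest outside the cycle, so that these transcripts are scarce and can come from a minority of hepatocytes or from other liver cells. In whole liver, fewer cycling cells and less RNA per cycling cell cannot be told apart.

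Depth was 38783564 to 54538581 counts per library at day 9 but 7650269 to 9630027 at day 13, so that the same level in CPM (counts per 1e6 counts of the library, scaled between libraries) rested on fewer counts at day 13. Differences were tested with edgeR's quasi-likelihood test, and genes were called at an adjusted p under 0.05 over all 14248 genes tested. The Eif3m transcript fell by 3.23 on the log2 scale at day 9 and by 3.94 at day 13. The labels call the libraries replicates without saying that each came from its own animal, and p-values therefore measure the spread between these samples. Hepatocyte markers such as Alb, at 68265 ± 3860 CPM in the day 9 Eif3m siRNA group and 89669 ± 3500 CPM in its controls (SD, n = 3), were abundant in all libraries. The summed level of 7 hepatocyte markers was 86072 to 95556 CPM in the day 9 Eif3m siRNA libraries, against 114247 to 118895 CPM in the controls, and 96734 to 154811 CPM in the day 13 Eif3m siRNA libraries, against 168828 to 192485 CPM in the controls, without overlap at either day. Alb made up most of these sums, and at day 9 it was not called (log2 fold change −0.39, adjusted p = 0.14). Of the 7 markers, 3 were fitted above 0 at day 9 and 2 at day 13. Of the 7, 1 fell at day 9, and 3 fell and 2 rose at day 13. There Alb fell by 0.66 and Cyp2e1, a cytochrome P450, by 0.75 on the log2 scale (adjusted p = 0.010 and 0.0090). The part of this in the cell cycle values was not tested.

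By level per exon length, Ccnd1 stood highest with a mean of 20.6 CPM per kilobase over the 12 libraries, followed by Pcna at 9.89, Mcm7 at 3.34 and Cdkn2c at 1.70. The other 35 genes lay below 1 CPM per kilobase. In plain CPM, 36 of the 39 averaged under 5 and 18 under 1. The median over the 6 libraries of a day was under 10 counts for 3 of the 39 genes at day 9 and for 21 at day 13. The filter on low counts kept genes above 0.413 CPM in at least 3 libraries, and 35 members passed. The 4 that did not, and have no test, were Cdc6 (S phase) and Plk1, Bub1 and Cdkn3 (mitotic). Ccnb1, Aurkb, Bub1b, Cenpe, Gtse1 and Psrc1 passed with fewer than 3 control libraries above that level, so that their place in the test depended on the siRNA libraries.

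The day 9 comparison asked which cell cycle transcripts accompanied the loss of Eif3m in the liver. Of the 23 mitotic genes 6 rose, namely Mki67, Top2a, Ccna2, Tpx2, Gtse1 and Psrc1, by 1.61 to 2.84 on the log2 scale. Of the 6 G1/S regulators 1 fell, the CDK inhibitor gene Cdkn2c, and 0 of the 10 S phase genes was called. These 7 of the 35 members tested compare with 12.8% of all 14248 genes tested, 5.94% called as higher and 6.84% as lower. With the genes tested held fixed, 3 members were called without control replicate 2, and 4 without control replicate 3, siRNA replicate 1 or siRNA replicate 3 of day 9. Among the 20 mitotic genes tested, all 3 siRNA libraries lay above all 3 controls for 13 and below them for 0, against 22.5% and 21.0% of all genes tested. Without the 6 genes whose place in the test depended on siRNA libraries, they lay above for 7 of 14.

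At day 13 different genes were called, apart from 2 shared ones. Mcm7, a helicase subunit, Mad2l1, a spindle checkpoint gene, and Psrc1 rose, and Ccnd1 (cyclin D1), Cdkn2c and the helicase gene Mcm4 fell. These 6 of the 35 members tested compare with 23.7% of all genes called at that day, 12.8% as higher and 10.9% as lower. Of the 6, 3 were called without control replicate 1, where 18.9% of all genes were called with the genes tested held fixed. The siRNA libraries lay above all controls for 3 members and below them for 5, against 17.2% and 16.0% of all genes tested. Cdkn2c and Psrc1 were called at both days, Cdkn2c as lower and Psrc1 as higher.

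**Figure D1:**
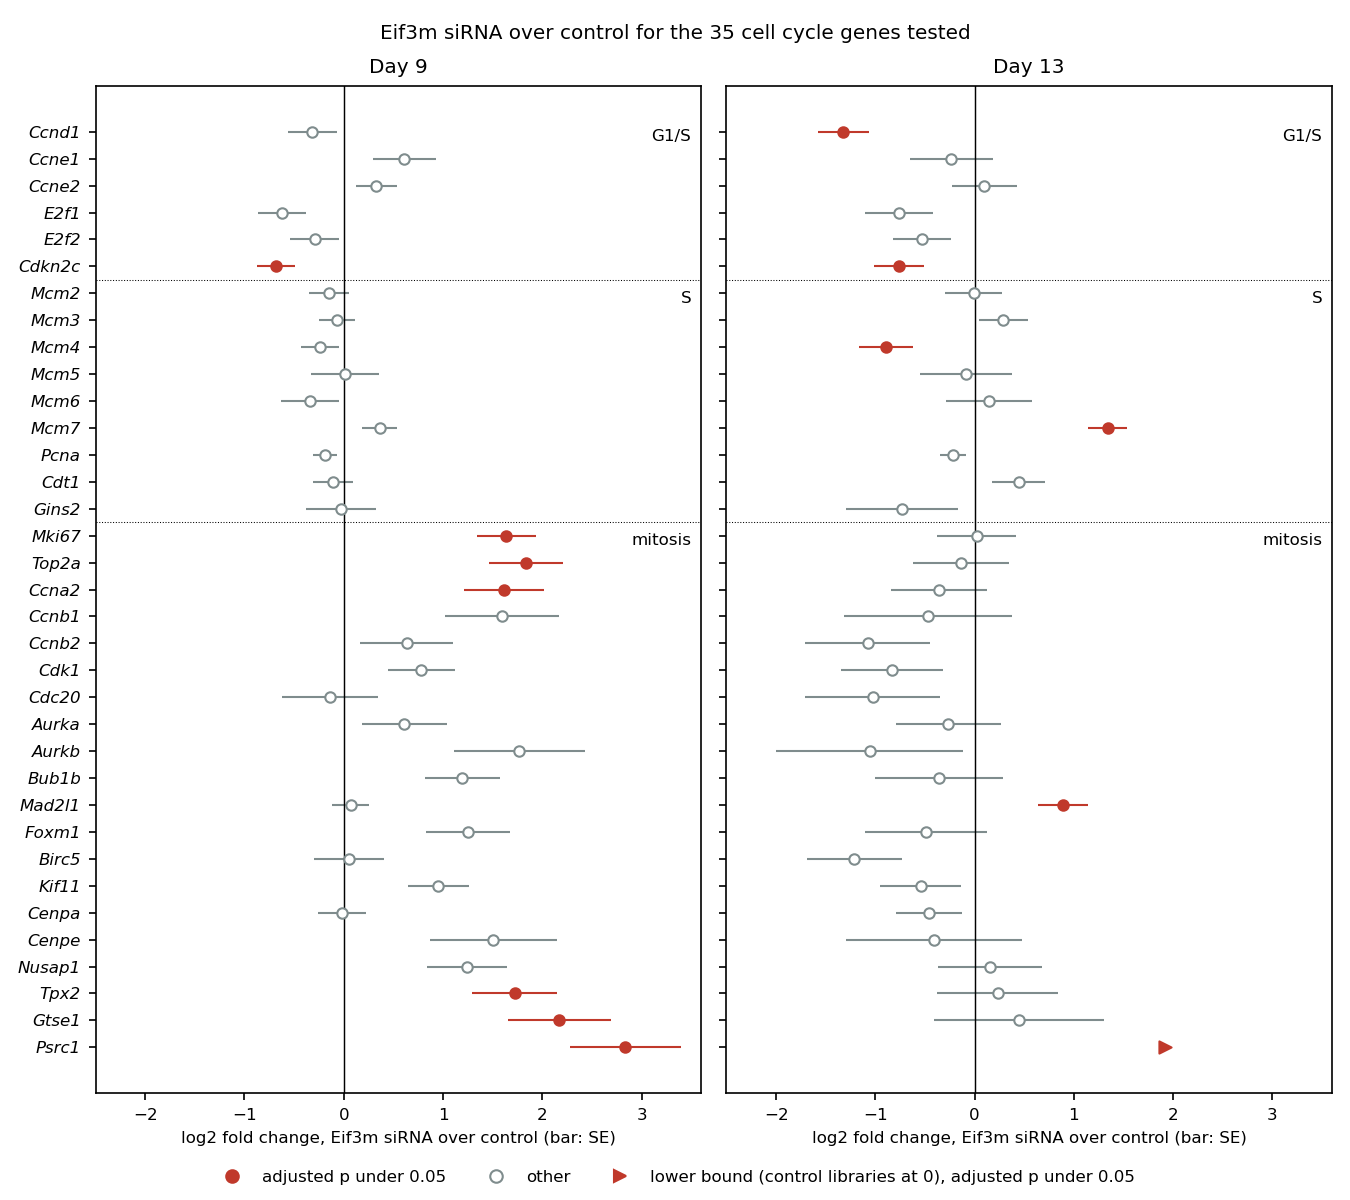
Log2 fold change (x axis) of Eif3m siRNA over control for each of the 35 genes tested (rows, by role). Day 9 is on the left and day 13 on the right, with bars for the standard error (SE), and filled red points were called. The red triangle, labelled a lower bound, is Psrc1 with its controls set to 3 counts over the group. It leaves out the sampling error of the siRNA counts. At day 9 the 6 genes called as higher are all mitotic, with Psrc1 farthest right at 2.84, while the 9 S phase genes tested lie between −0.34 and 0.36.

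Among the G1/S regulators, Ccnd1 encodes cyclin D1, which activates CDK4 and CDK6 early in G1. At day 13 its counts were 380, 572 and 464 in the Eif3m siRNA libraries, against 1181, 770 and 1141 in the controls. The 3 siRNA libraries lay close together, at 50.8 to 53.1 CPM, below every control at 110 to 159 CPM. Ccnd1 fell by 1.32 on the log2 scale (SE 0.26, adjusted p = 0.0029). At day 9 its counts were 7619, 3439 and 3926 in the Eif3m siRNA libraries, against 4414, 5273 and 5212 in the controls. Here siRNA replicate 1, at 137 CPM, lay above all controls and the other siRNA libraries, at 57.3 and 81.1 CPM, below them, so that the groups overlapped. The day 9 log2 fold change was −0.32 (SE 0.25, adjusted p = 0.45), and without siRNA replicate 1 it was −0.75 with the genes tested held fixed (adjusted p = 0.026). Exons of Ccnd1 share 1100 bases with LTO1 on the other strand, whose log2 fold changes were −0.43 at day 9 and −0.82 at day 13 (adjusted p = 0.051 and 0.0022), and the part of these shared bases was not tested.

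Cdkn2c encodes p18, an inhibitor of CDK4 and CDK6. Its counts at day 9 were 239, 165 and 215 in the Eif3m siRNA libraries, against 205, 316 and 288 in the controls, or 3.83 ± 0.934 and 6.13 ± 0.840 CPM (SD, n = 3). At day 13 they were 26, 28 and 28 in the Eif3m siRNA libraries, against 44, 38 and 40 in the controls, or 3.10 ± 0.521 and 5.22 ± 0.812 CPM (SD, n = 3). Scaled to depth, the groups did not overlap at either day, and Cdkn2c fell by 0.68 (SE 0.19, adjusted p = 0.033) and by 0.76 (SE 0.25, adjusted p = 0.044) on the log2 scale. Both calls depended on single libraries when each library was left out in turn with the genes tested held fixed. The day 9 call was lost without control replicate 2 or 3 or siRNA replicate 1 or 2 of that day, at adjusted p from 0.051 to 0.13. The day 13 call was lost without day 9 control replicate 2 or 3, day 13 control replicate 1 or 2 or day 13 siRNA replicate 2 or 3, at adjusted p from 0.0501 to 0.13.

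The remaining 4 G1/S regulators were not called. Scaled to depth, E2f1, the E2F factor best known for driving S phase genes, was lower in every siRNA library than in any control at both days, with log2 fold changes of −0.62 (adjusted p = 0.11) and −0.76 (adjusted p = 0.13). Its counts at day 13 were 7, 10 and 8 in the Eif3m siRNA libraries, against 15, 9 and 13 in the controls. E2f2, another activating E2F, had log2 fold changes of −0.29 at day 9 and −0.53 at day 13. Ccne1 and Ccne2, the cyclins E that activate CDK2, had log2 fold changes of 0.61 and 0.33 at day 9 and −0.24 and 0.10 at day 13. None of these 4 genes had an adjusted p under 0.11 at either day. Ccne2 shares 609 exon bases with Ints8 on the other strand.

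The S phase genes are led by Mcm2 to Mcm7, which encode the 6 subunits of the MCM ring that is loaded onto origins in G1 and unwinds DNA in S phase. At day 13 Mcm7 had 158, 283 and 292 counts in the Eif3m siRNA libraries, against 77, 99 and 70 in the controls. Every siRNA library, at 22.1 to 32.0 CPM, was above every control, at 7.58 to 14.1 CPM. Mcm7 rose by 1.34 (SE 0.20, adjusted p = 0.00030) on the log2 scale, a call kept in all 12 fits that left out 1 library. At day 9 the groups did not overlap either, at 11.3 to 13.5 CPM in the Eif3m siRNA libraries and 9.13 to 10.0 CPM in the controls, and the log2 fold change, 0.36 with an SE of 0.18, was not called (adjusted p = 0.20).

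The other subunits did not follow Mcm7. Mcm4 had 19, 18 and 15 counts in the day 13 Eif3m siRNA libraries, against 27, 24 and 35 in the controls. All siRNA libraries, at 1.64 to 2.66 CPM, lay below the controls, at 3.42 to 3.79 CPM, and Mcm4 fell by 0.90 (SE 0.27, adjusted p = 0.029) on the log2 scale. This call was lost when control replicate 1 or 3 or siRNA replicate 2 or 3 of that day was left out, at adjusted p from 0.060 to 0.105. Mcm2, Mcm3, Mcm5 and Mcm6 had log2 fold changes of −0.01, 0.29, −0.09 and 0.14 at day 13, with adjusted p from 0.43 to 0.997. As background, the subunits assemble in equal numbers, and the pair called here changed in opposite directions.

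Counts of Mcm7 may hold reads of other genes. Its exons share 321 bases with Ap4m1 and 64 with Cops6 on the other strand, and the microRNA genes Mir93 and Mir25 overlap its annotated exons by 88 and 84 bases. Ap4m1 had log2 fold changes of −0.18 at day 9 and 0.36 at day 13 (adjusted p = 0.53 and 0.24). An annotated copy, Gm5487, is 97.7% identical to Mcm7 over 2157 bases. It has no row of its own in the count table, and its part in the Mcm7 counts was not tested.

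Pcna, the sliding clamp of the replication fork and also a known p53 target, had 168, 220 and 205 counts in the day 13 Eif3m siRNA libraries, against 212, 186 and 203 in the controls. Its log2 fold changes were −0.19 at day 9 and −0.21 at day 13 (adjusted p = 0.33 and 0.25), and the groups were apart at day 9 only, at 19.3 to 23.9 and 24.2 to 25.9 CPM. Cdt1, which loads the MCM ring together with Cdc6, had log2 fold changes of −0.11 and 0.44, and Gins2, part of the GINS complex of the active helicase, −0.03 and −0.73, none of them called. Gins2 shares 2758 exon bases with Gse1 on the other strand. Cdc6, below the filter, had 17, 14 and 6 counts in the day 9 Eif3m siRNA libraries, against 6, 6 and 16 in the controls, and at most 4 counts in any day 13 library.

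At day 9 edgeR called 0 of the 9 S phase genes tested, 0 also had an unadjusted p under 0.05, and DESeq2 and limma-voom, which called 18.2% and 19.3% of all genes, called 0 as well. The median log2 fold change of the S phase genes was −0.11 at day 9 and −0.01 at day 13, against 0.01 and 0 for all genes tested. For the 6 G1/S regulators the medians were −0.30 and −0.65.

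RefSeq promoters of GRCm38.p6, 250 bases before to 50 bases after the annotated start, were found for 31 of the 39 genes. For genes with 2 entries, Mcm7, Gtse1 and Psrc1 among them, only the first was searched. Among S phase genes with a promoter, 6 of 8 held an E2F motif (TTTGGCGC, TTTCCCGC, TTTCGCGC or TTTGCCGC on either strand), against 2.32% of 27018 promoters of all genes, 1 of 19 mitotic and 1 of 4 G1/S promoters. Shown are Mcm7, which rose at day 13, and Mcm6, another subunit of the ring, which was not called, both on the minus strand at chr5:138171834-138172133 and chr1:128359656-128359955. Capitals mark the E2F motif, and the overlapping pair in Mcm6 is printed as 1 run.
Mcm7: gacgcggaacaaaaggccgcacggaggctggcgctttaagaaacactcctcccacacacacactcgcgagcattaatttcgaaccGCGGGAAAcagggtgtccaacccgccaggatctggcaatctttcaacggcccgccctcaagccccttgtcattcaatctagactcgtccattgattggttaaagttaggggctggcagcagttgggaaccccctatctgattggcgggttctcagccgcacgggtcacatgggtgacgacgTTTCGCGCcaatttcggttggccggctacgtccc
Mcm6: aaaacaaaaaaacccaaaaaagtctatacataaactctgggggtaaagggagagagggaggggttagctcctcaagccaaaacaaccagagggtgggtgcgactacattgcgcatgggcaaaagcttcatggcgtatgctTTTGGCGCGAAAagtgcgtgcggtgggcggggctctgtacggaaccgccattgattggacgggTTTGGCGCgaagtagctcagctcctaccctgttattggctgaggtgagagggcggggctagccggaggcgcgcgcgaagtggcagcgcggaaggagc
In Mcm7 the motif lies 165 bases before the start and 16 bases after it, and in Mcm6 it lies 110, 106 and 47 bases before the start. Both promoters hold the letters, and 1 of the genes was called. A match is a description of the letters and does not show that a factor binds there.

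Among mitotic promoters, 13 of 19 held a CHR (TTTGAA or TTCGAA on either strand), against 19.4% of all promoters, 2 of 8 S phase and 0 of 4 G1/S promoters. A CCAAT box (CCAAT on either strand), known to accompany the CHR, was present in 16 of 19, against 37.9% of all promoters. Shown are the 3 mitotic genes whose day 9 call held in all 12 fits that left out 1 library with the genes tested held fixed: Mki67 (chr7:135716330-135716629, minus strand), Top2a (chr11:99024140-99024439, minus strand) and Psrc1 (chr3:108383554-108383853, plus strand). Psrc1 passed the filter through 3 siRNA libraries and 0 control libraries, so that holding the genes fixed kept it in those fits. Capitals mark the CHR.
Mki67: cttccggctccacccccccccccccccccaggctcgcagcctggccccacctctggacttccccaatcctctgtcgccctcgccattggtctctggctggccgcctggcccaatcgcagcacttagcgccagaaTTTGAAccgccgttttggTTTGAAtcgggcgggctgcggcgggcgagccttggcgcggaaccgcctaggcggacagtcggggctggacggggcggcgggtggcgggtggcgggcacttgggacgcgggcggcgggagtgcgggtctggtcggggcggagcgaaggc
Top2a: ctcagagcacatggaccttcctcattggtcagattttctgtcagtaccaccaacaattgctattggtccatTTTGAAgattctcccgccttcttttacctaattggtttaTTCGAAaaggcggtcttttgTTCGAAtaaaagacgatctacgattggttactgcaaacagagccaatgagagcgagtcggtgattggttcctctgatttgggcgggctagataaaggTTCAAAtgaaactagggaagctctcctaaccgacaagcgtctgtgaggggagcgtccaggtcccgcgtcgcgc
Psrc1: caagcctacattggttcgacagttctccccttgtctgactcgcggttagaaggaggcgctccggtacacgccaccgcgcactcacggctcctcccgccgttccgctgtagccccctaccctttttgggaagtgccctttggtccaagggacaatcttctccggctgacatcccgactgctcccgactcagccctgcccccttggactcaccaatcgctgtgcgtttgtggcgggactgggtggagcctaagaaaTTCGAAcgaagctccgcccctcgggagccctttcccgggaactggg
Mki67 holds 2 CHR matches, 116 and 98 bases before the start, Top2a holds 4, and Psrc1 holds 1 that begins 4 bases after the start. Among the mitotic genes that rose at day 9, Gtse1 held no CHR in this window, and no promoter was found for Ccna2 and Tpx2. Mad2l1, which rose at day 13, held no CHR either. Mitotic promoters that held a CHR included genes that were not called, such as Cdc20 and Cenpa.

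Mki67 encodes Ki-67, the protein that coats mitotic chromosomes and the usual stain for cycling cells. At day 9 it had 287, 201 and 159 counts in the Eif3m siRNA libraries, against 52, 45 and 66 in the controls. The lowest siRNA library, at 3.28 CPM, was above the highest control, at 1.59 CPM. Mki67 rose by 1.64 (SE 0.30, adjusted p = 0.0033) on the log2 scale. At day 13 it had 21, 25 and 12 counts in the Eif3m siRNA libraries, against 11, 22 and 17 in the controls. Those groups overlapped, at 2.19 ± 0.819 and 2.15 ± 0.870 CPM (SD, n = 3), and the log2 fold change was 0.02 with an SE of 0.40 (adjusted p = 0.98).

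Top2a encodes the topoisomerase that untangles sister chromosomes. At day 9 it had 225, 134 and 96 counts in the Eif3m siRNA libraries, against 44, 27 and 28 in the controls. The siRNA libraries, at 1.98 to 4.04 CPM, lay above the controls, at 0.527 to 1.13 CPM, and Top2a rose by 1.83 (SE 0.38, adjusted p = 0.0064) on the log2 scale. Both Mki67 and Top2a were highest in siRNA replicate 1. At day 13 Top2a had 17, 21 and 8 counts in the Eif3m siRNA libraries, against 15, 18 and 11 in the controls, with a log2 fold change of −0.14 (adjusted p = 0.87).

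Ccna2 encodes cyclin A2, which serves both S phase and entry into mitosis. At day 9 it had 71, 50 and 57 counts in the Eif3m siRNA libraries, against 19, 14 and 13 in the controls, without overlap. It rose by 1.61 (SE 0.40, adjusted p = 0.020) on the log2 scale, a call lost when control replicate 2 or 3 or siRNA replicate 1 or 3 of day 9 was left out, at adjusted p from 0.068 to 0.083. At day 13 the groups overlapped at 1.24 ± 0.706 and 1.58 ± 0.752 CPM (SD, n = 3). Ccna2 shares 510 exon bases with Exosc9 on the other strand, whose log2 fold changes were 0.33 at day 9 and 0.67 at day 13 (adjusted p = 0.18 and 0.011).

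Tpx2, a spindle assembly factor that activates Aurora A, had 52, 36 and 35 counts in the day 9 Eif3m siRNA libraries, against 14, 8 and 7 in the controls. It rose by 1.72 (SE 0.43, adjusted p = 0.019), and the call was lost without the same 4 libraries, at adjusted p from 0.053 to 0.086. Gtse1, a microtubule-binding protein first found in mouse as a p53-inducible gene, had 30, 24 and 28 counts in the day 9 Eif3m siRNA libraries, against 6, 2 and 6 in the controls. It rose by 2.17 (SE 0.52, adjusted p = 0.015), and the call was lost without day 9 control replicate 2 or siRNA replicate 1 or 3, at adjusted p from 0.054 to 0.064. Neither gene was called at day 13, where Tpx2 had at most 7 counts and Gtse1 at most 6 in any library.

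Psrc1 encodes DDA3, a spindle protein also found in mouse as a p53-inducible gene. At day 9 it had 23, 18 and 17 counts in the Eif3m siRNA libraries, against 3, 2 and 1 in the controls, and rose by 2.84 (SE 0.56, adjusted p = 0.0068) on the log2 scale. At day 13 it had 4, 3 and 6 counts in the Eif3m siRNA libraries, against 0 in each of the 3 controls (adjusted p = 0.0090). With 3 counts over the control group as the floor, the 13 pooled siRNA counts of Psrc1 gave a 3.79-fold higher level at day 13. This value leaves out the sampling error of the siRNA counts and the spread between libraries. Of the 35 members tested Psrc1 had the largest fold change at day 9, on few counts, and it had entered the test through siRNA libraries.

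Mad2l1 encodes MAD2, which holds back anaphase until chromosomes are attached. At day 13 it had 27, 34 and 23 counts in the Eif3m siRNA libraries, against 10, 13 and 17 in the controls, at 3.15 ± 0.629 and 1.68 ± 0.289 CPM (SD, n = 3). The groups did not overlap, and Mad2l1 rose by 0.89 (SE 0.25, adjusted p = 0.020) on the log2 scale, a call lost without control replicate 1 or siRNA replicate 1 of day 13, at adjusted p of 0.069 and 0.060. At day 9 its groups overlapped, with a log2 fold change of 0.07 (adjusted p = 0.85).

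**Figure D2:**
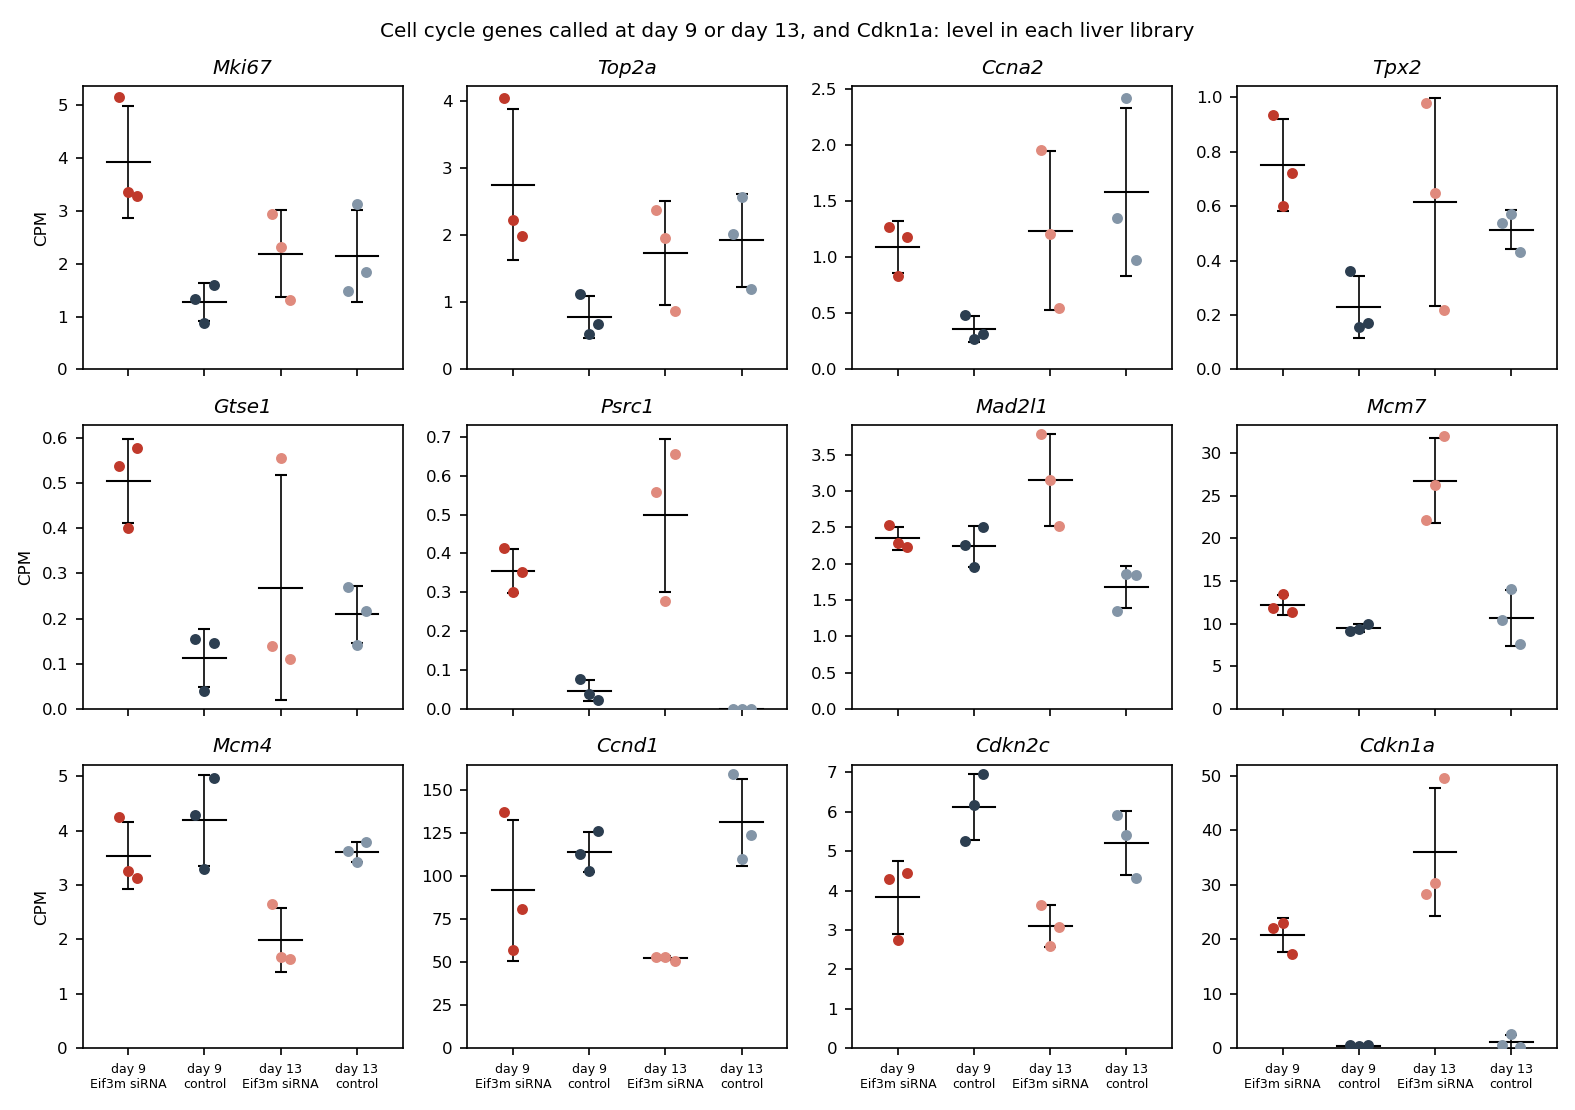
Level in CPM (y axis, from 0) of the 11 cell cycle genes called at either day and of Cdkn1a, in each library (points), with the group mean and SD (bars). The 3 day 9 Eif3m siRNA libraries lie above their controls for Mki67, Top2a, Ccna2, Tpx2, Gtse1 and Psrc1, and at day 13 Mcm7, Mad2l1 and Psrc1 lie above and Ccnd1, Cdkn2c and Mcm4 below their controls.

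At day 9, 14 of the 20 mitotic genes tested had an unadjusted p under 0.05, and without the 6 that passed the filter through siRNA libraries 8 of 14 did, against 27.4% of all genes. In 7 of the 20 genes the siRNA libraries lay above all controls without a call. Of all genes tested 22.5% lay so, called or not. Among these 7, Ccnb1, Aurkb, Bub1b and Cenpe had passed the filter through siRNA libraries. By edgeR 0 mitotic genes fell. Bub1b, a checkpoint kinase, had 49, 34 and 39 counts in the Eif3m siRNA libraries, against 11, 19 and 13 in the controls, with a log2 fold change of 1.20 (adjusted p = 0.054). Kif11, the motor that separates spindle poles, had a log2 fold change of 0.95 (adjusted p = 0.058), Nusap1, a microtubule-bundling protein, 1.24 (adjusted p = 0.060) and Foxm1, the transcription factor of the late cell cycle, 1.26 (adjusted p = 0.068). Ccnb1, cyclin B1 of the mitotic kinase, had 1.60 (adjusted p = 0.087), Aurkb, the Aurora B kinase, 1.77 (adjusted p = 0.097) and Cenpe, a kinetochore motor, 1.51 (adjusted p = 0.15). The groups did not overlap for any of these 7 genes. DESeq2 called Bub1b, Kif11 and Foxm1 besides the 7 genes called by edgeR, and limma-voom called Bub1b, Kif11, Foxm1, Ccnb1 and E2f1 besides them, the last as lower. Exons of Nusap1 share 172 bases with Oip5 on the other strand, and those of Foxm1 share 144 with Tex52.

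The remaining mitotic genes tested were not called at day 9 either. Cdk1, the mitotic kinase, had a log2 fold change of 0.78 (adjusted p = 0.15), Ccnb2, cyclin B2, 0.63, and Aurka, the Aurora A kinase, 0.61. Birc5, the passenger protein survivin, had 0.05, Cenpa, the centromeric histone, −0.02, and Cdc20, which activates the anaphase-promoting complex, −0.14. The groups of these 6 genes overlapped. Plk1, the polo-like kinase, had 29, 18 and 10 counts in the Eif3m siRNA libraries, against 7, 7 and 4 in the controls, and Bub1, a checkpoint kinase, 26, 13 and 12 counts, against 5, 3 and 4 in the controls, both without overlap but below the filter. Cdkn3, a phosphatase of CDKs, had at most 7 counts in any library.

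At day 13 the mitotic genes other than Mad2l1 and Psrc1 were not called in either direction, and 3 of the 20 tested had an unadjusted p under 0.05, against 36.0% of all genes. Of the 35 members tested, DESeq2 called 6 and limma-voom 3 at day 13, against 26.7% and 19.1% of all genes. Birc5 had 4, 6 and 7 counts in the Eif3m siRNA libraries, against 11, 14 and 9 in the controls, without overlap, at −1.21 on the log2 scale with an SE of 0.48 (adjusted p = 0.083). Ccnb2, Aurkb, Cdc20 and Cdk1 had log2 fold changes of −1.08, −1.06, −1.03 and −0.83, with adjusted p from 0.24 to 0.46. Of the 23 mitotic genes 11 had under 10 counts in every day 13 library. When the day 9 counts were thinned to the day 13 depth, 2 members kept their day 9 calls, Mki67 and Top2a, and the other 5 had adjusted p from 0.056 to 0.30 in that 1 draw with the genes tested held fixed. Of all genes, 8.11% were called at day 9 in that draw.

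Over the 20 mitotic genes tested the median log2 fold change was 1.25 at day 9 and −0.39 at day 13. These medians include 6 genes that entered the test through siRNA libraries. For the 14 with at least 3 control libraries above the filter, the median was 0.87 at day 9 and −0.41 at day 13, and 4 of them were called at day 9 and 1 at day 13. Summed over all 23 genes, the level was 30.9, 21.7 and 24.1 CPM in the day 9 Eif3m siRNA libraries, against 18.4, 11.7 and 13.4 CPM in the controls, without overlap. At day 13 it was 24.2, 18.8 and 16.8 CPM in the Eif3m siRNA libraries, against 24.8, 30.5 and 15.9 CPM in the controls, with overlap. Single libraries stood out in these sums: siRNA replicate 1 was the highest of its group for 17 of the 23 genes at day 9, and control replicate 2 for 17 at day 13. The same libraries were the highest of their groups in summed erythroid markers, at 562 CPM beside 313 and 391 CPM in the day 9 Eif3m siRNA group and at 3832 CPM beside 1954 and 1660 CPM in the day 13 controls. Their summed neutrophil markers were also the highest, at 4.75 CPM beside 3.43 and 2.56 CPM and at 7.41 CPM beside 4.17 and 3.03 CPM. Other marker lists shared this. Day 9 siRNA replicate 1 was the highest of its group in every marker list except the hepatocyte one. Day 13 control replicate 2 was also the highest in monocyte, stellate, cholangiocyte and hepatocyte sums. It was not the highest in Kupffer, endothelial, T and NK or B and plasma cell sums. The part of this in the mitotic sums was not tested.

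**Figure D3:**
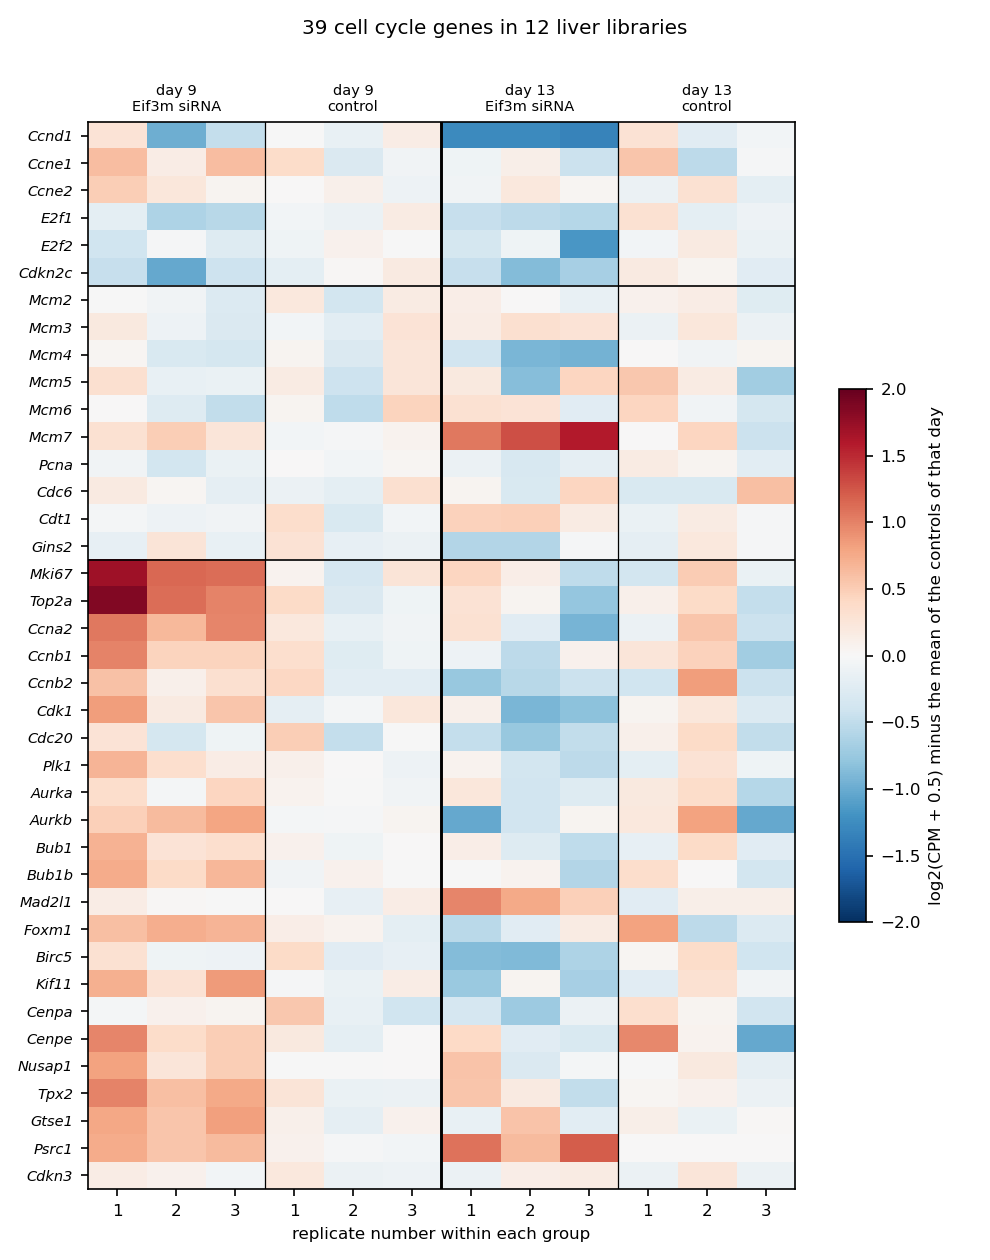
Level of all 39 genes (rows, by role) in the 12 libraries (columns), as log2(CPM + 0.5) minus the mean of the controls of the same day, red for higher and blue for lower. In the day 9 Eif3m siRNA columns red fills most of the mitotic block, most strongly in replicate 1, and at day 13 Ccnd1 is blue and Mcm7 red in all 3 siRNA libraries.

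The siRNA effect at day 13 minus that at day 9 was tested for each gene, because a call at 1 day only does not show that the days differ. edgeR called 0 of 35 members, where 2.55% of all genes were called, 0.898% as higher and 1.66% as lower, although 11 of 35 members had an unadjusted p under 0.05, against 18.2% of all genes, and 9 of these were mitotic. DESeq2, which called 6.96% of all genes, called 4 members, Mki67, Top2a and Ccna2 with a smaller effect at day 13 and Mcm7 with a larger one, and limma-voom, which called 1.94% of all genes, called 0. Leaving out 1 library, edgeR called Ccnd1 without day 9 siRNA replicate 2 and Mcm7 without day 13 control replicate 2, at adjusted p of 0.036 and 0.025. In the edgeR fit Mki67 had a difference of −1.61 (SE 0.50, adjusted p = 0.097) and Top2a one of −1.98 (SE 0.61, adjusted p = 0.098) on the log2 scale. Mcm7 had a difference of 0.98 (SE 0.26, adjusted p = 0.062). The days also differed in depth and belonged to library sets with separate names, which cannot be told apart from the time itself.

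Cdkn1a encodes p21, the inhibitor of cyclin-dependent kinases that p53 induces. It had 1224, 1379 and 839 counts in the day 9 Eif3m siRNA libraries, against 22, 18 and 22 in the controls, and 202, 327 and 452 counts in the day 13 Eif3m siRNA libraries, against 4, 18 and 3 in the controls. No library overlapped, and Cdkn1a rose by 5.44 at day 9 and by 5.07 at day 13 on the log2 scale (SE 0.39 and 0.45, adjusted p = 1.7e-05 and 1.6e-05). Ccng1, cyclin G1 and a p53 target, rose by 1.16 at both days. Of 6 further CDK inhibitor genes, Cdkn1a among them, 4 were tested, and 1 rose and 1 fell at each day. Cdkn2d, which encodes p19, fell by 0.84 at day 9 (adjusted p = 0.026), a call lost without any 1 of the 6 libraries of that day, at adjusted p from 0.058 to 0.10. Cdkn1c, which encodes p57, fell by 0.89 at day 13 (adjusted p = 0.036), a call lost when control replicate 1 or 3 or siRNA replicate 2 or 3 of that day was left out, at adjusted p from 0.065 to 0.14.

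Beyond the 39 genes, 109 further cell cycle genes were looked up, of which 94 were tested. At day 9, 12 of the 94 were called, 5 as higher and 7 as lower, against 12.8% of all genes, and at day 13, 18 were called, 9 in each direction, against 23.7% of all genes. These shares were near the background at day 9 and below it at day 13, and the median log2 fold changes were 0.11 and −0.05. The day 9 count of 12 was 7, 5 and 6 when control replicate 1, 2 or 3 of that day was left out, and 7 and 5 when siRNA replicate 1 or 2 was. Without these libraries, 6.86% to 8.87% of all genes were called when filtered anew and 6.14% to 8.00% with the genes tested held fixed. E2f8, a repressive E2F that promotes polyploidy in hepatocytes, fell by 0.97 at day 9 and by 2.51 at day 13 (adjusted p = 0.018 and 9.6e-05), with 10, 11 and 21 counts in the day 13 Eif3m siRNA libraries, against 55, 81 and 73 in the controls. The day 9 call of E2f8 was lost without control replicate 2 or siRNA replicate 2 or 3, at adjusted p from 0.065 to 0.076. Of the 42 further mitotic genes 34 were tested. At day 9, 2 of them rose, a share near the 5.94% of all genes called as higher. Kif23, a motor of cytokinesis, rose by 2.28 (adjusted p = 0.0017). Tacc3, a spindle protein, rose by 0.93 (adjusted p = 0.041), a call lost without any 1 of the 6 day 9 libraries. edgeR called 0 as lower, and 12 of the 34 had an unadjusted p under 0.05, against 27.4% of all genes. DESeq2 called 2 as higher and 1 as lower and limma-voom 5 and 1, where they called 18.2% and 19.3% of all genes. At day 13 edgeR called 1 of them, H2afx, a histone variant, which fell by 0.98.

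Of the 40 further S phase genes 36 were tested. At day 9, 1 rose and 4 fell, a share near the 12.8% of all genes, and at day 13, 7 rose and 4 fell, where 23.7% of all genes were called. Tk1, the thymidine kinase, fell by 0.92 at day 9 and by 0.69 at day 13. Gmnn, the inhibitor of licensing, fell by 0.63 at day 9. Rfc4, a subunit of the clamp loader, rose by 1.70 and Prim1, the primase, by 1.41 at day 13. Beside Mcm7, some replication genes rose and others fell at day 13.

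Markers of other liver cells moved in the same comparisons. The summed level of 8 monocyte and infiltrating macrophage markers was 167 to 185 CPM in the day 9 Eif3m siRNA libraries, against 92.3 to 116 CPM in the controls, and 94.9 to 119 CPM in the day 13 Eif3m siRNA libraries, against 189 to 225 CPM in the controls. Lyz2 and Csf1r made up most of these sums, with day 9 means of 101 and 61.3 CPM in the Eif3m siRNA group and 42 and 53.8 CPM in the controls. Both are genes of myeloid cells, so that the sums do not tell infiltrating from resident macrophages. Lyz2, the lysozyme of myeloid cells, rose by 1.26 at day 9 and fell by 0.74 at day 13. Csf1r was not called at day 9 (log2 fold change 0.19, adjusted p = 0.36) and fell by 1.20 at day 13. Of the 7 markers tested, 7 were fitted above 0 at day 9 and 0 at day 13. Of the 8 markers 2 were called as higher at day 9 and 2 as lower at day 13. This is the direction in which the mitotic sums lay at day 9, and its part in the mitotic values was not tested.

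The other marker lists moved differently. Kupffer cell markers summed to 151 to 182 CPM in the day 9 Eif3m siRNA libraries, against 227 to 276 CPM in the controls, and 3 of 6 fell. At day 13 they summed to 90.4 to 153 CPM in the Eif3m siRNA libraries, against 196 to 260 CPM in the controls, and 5 of 6 fell. Clec4f, a receptor particular to Kupffer cells, fell by 2.00 and 1.69. Its mean at day 9 was 24.6 CPM in the Eif3m siRNA group and 98.3 CPM in the controls. Cd5l, the other of the 2 most abundant Kupffer markers, had 98.5 and 81.2 CPM there. Its log2 fold changes were 0.28 at day 9 and −0.58 at day 13 (adjusted p = 0.28 and 0.020). At day 9, 2 of the 6 markers were fitted above 0, and limma-voom called 1 as higher and 4 as lower. Erythroid markers summed to 313 to 562 CPM in the day 9 Eif3m siRNA libraries, against 462 to 610 CPM in the controls, where 2 of 7 fell, and to 455 to 1463 CPM in the day 13 Eif3m siRNA libraries, against 1660 to 3832 CPM in the controls, where 1 fell. Stellate cell markers summed to 165 to 191 CPM in the day 9 Eif3m siRNA libraries, against 110 to 148 CPM in the controls, and 1 of 6 rose, while 2 fell at day 13. Of 6 endothelial markers 1 rose at day 9 and 3 fell at day 13. Of 5 cholangiocyte markers 1, Sox9, rose at day 13. Of the T and NK cell markers all 7 were tested, but of the B and plasma cell markers 5 of 6 and of the neutrophil markers 3 of 6. Of those tested 0 were called by edgeR, DESeq2 or limma-voom at either day, and in edgeR 1 of them, at day 9, had an unadjusted p under 0.05. Ly6g, a defining neutrophil marker, was at 0 counts in every library of 3 of the 4 groups. The part of any of these cells in the cell cycle values was not tested.

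**Figure D4:**
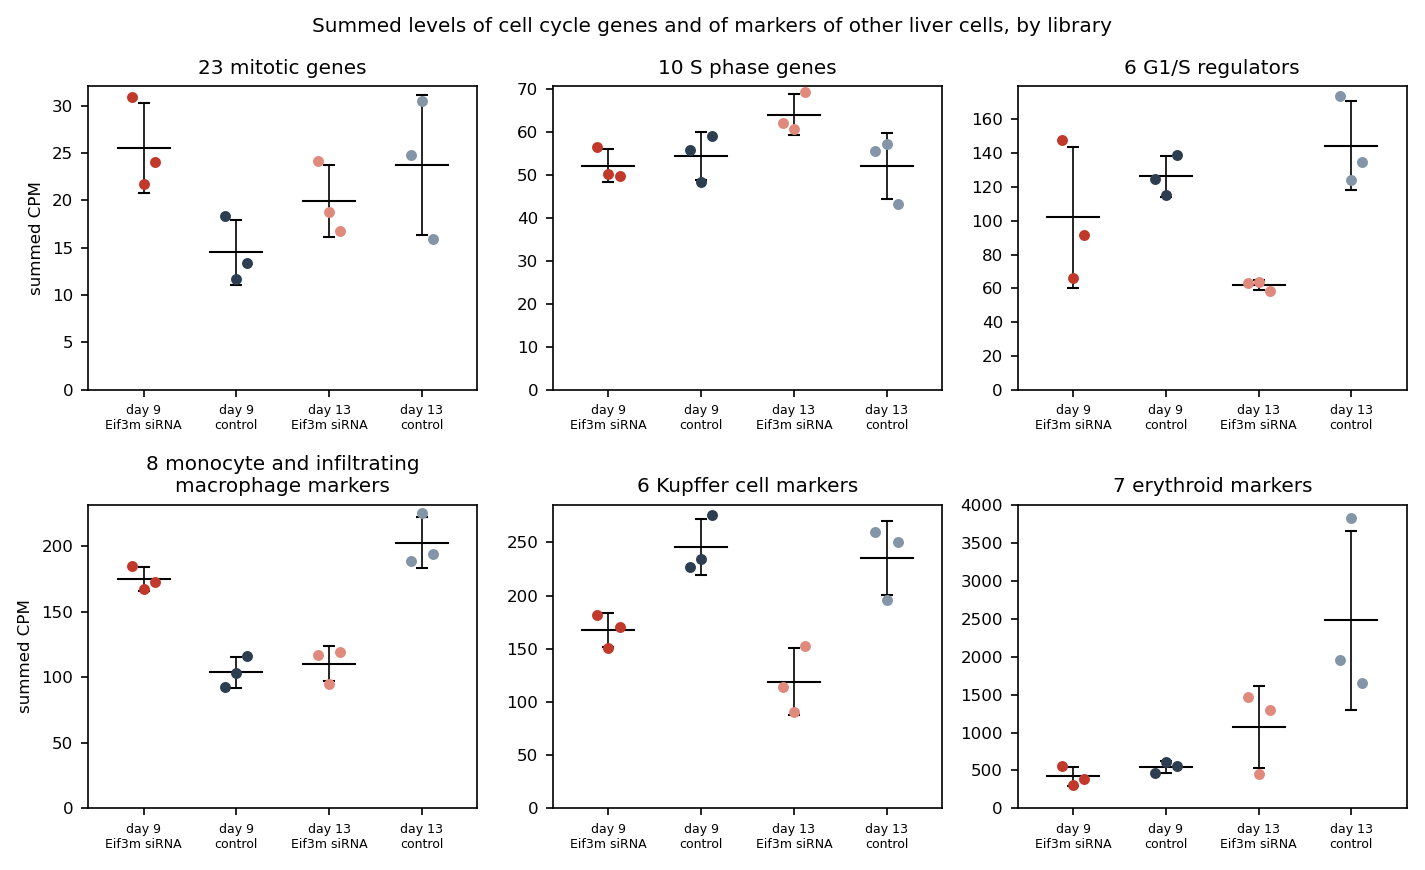
Summed CPM (y axes, from 0) of the mitotic, S phase and G1/S genes and of monocyte and infiltrating macrophage, Kupffer cell and erythroid markers in each library (points), with group mean and SD. The mitotic and monocyte sums of the day 9 Eif3m siRNA libraries, at 21.7 to 30.9 and 167 to 185 CPM, lie above their controls, while the Kupffer sums, at 151 to 182 CPM, lie below theirs. Lyz2 and Csf1r, genes of myeloid cells, make up most of the monocyte sums, which do not tell infiltrating from resident macrophages. Of the 2 most abundant Kupffer markers Clec4f fell at day 9 and Cd5l was not called.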

How the data were processed

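Estimated counts, 1 value per Ensembl gene and library, were deposited by the authors for the 12 libraries. Per the submitters' processing notes, STAR 2.5.3a, RSEM 1.3.0 and mm10 were used; their annotation release, strand setting and filters were not stated there. The deposited expected counts were whole numbers and were taken as rounded and used as they stood. GENCODE M21 (mm10) gave symbols, positions and shared exon bases; it named 50462 of 50686 identifiers, and the other 224 held 0.0199% of the counts.

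The filter was filterByExpr (edgeR 4.0.16, minimum count 10); the 14248 genes it kept held 99.93% or more of every library's counts. TMM factors scaled the libraries and enter all CPM. All 12 libraries entered 1 edgeR quasi-likelihood fit (robust) of 4 groups, with 8 residual degrees of freedom, so both days shared 1 spread per gene. The median SD of log2 CPM within a group was 0.104 in the Eif3m siRNA group and 0.116 in the controls at day 9, and 0.202 and 0.219 at day 13. Tests were two-sided with Benjamini-Hochberg adjustment over all genes, and fold changes are Eif3m siRNA over control.

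The members, the further cell cycle genes and the marker lists were chosen with earlier results of these data known. Genes outside the 39 were named by rule: Eif3m, Cdkn1a, up to 4 called genes with the smallest p per further list and day, and up to 2 markers per list with the highest mean CPM; neighbours and copies that share exon sequence, and Ints8, Cops6, Mir93, Mir25 and Ly6g, were named after their values or overlaps were seen. Near-identical copies were sought with blastn 2.17.0 at 95% identity over 200 bases. Alternatives were DESeq2 1.42.0, its size factors, upper-quartile scaling, limma-voom (limma 3.58.1), other filters, a replicate block, each day alone, thinned day 9 counts and leaving out each library. Steps were tested on simulated data. Replicate libraries differed by more than sampling noise in every pair. R 4.3.3, Python 3.11.15 and matplotlib 3.10.9 were used.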

Additional observations from a re-analysis of the deposited data

Results flagged for a closer look

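For the difference between the days, edgeR called 0 of the 35 members tested. Among the other genes named by the rule, the siRNA effect at day 13 minus that at day 9 was called for 6 genes. Kif23, a mitotic motor, had a difference of −2.40 on the log2 scale (adjusted p = 0.0498), with 4, 8 and 11 counts in the day 13 Eif3m siRNA libraries, against 3, 8 and 11 in the controls, and 76, 57 and 46 counts in the day 9 Eif3m siRNA libraries, against 9, 11 and 9 in the controls. Its call was kept in 1 of 12 fits that left out 1 library with the genes tested held fixed, and was lost under DESeq2 size factors, limma-voom, the replicate block and thinning. Rfc4, a clamp loader subunit, had a difference of 1.46 (adjusted p = 0.025), kept in 5 of those 12 fits.

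Among markers of other liver cells, the difference was −2.0 for Lyz2 and −1.39 for Csf1r, genes of myeloid cells, −1.70 for Col3a1, a collagen of stellate cells, and 1.71 for Sox9, a cholangiocyte factor. The first 2 and Sox9 kept their calls in all 12 such fits and Col3a1 in 7.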

How the results depend on the processing

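With the edgeR fit 7 members were called at day 9, 6 at day 13 and 0 for the difference between the days. DESeq2 size factors and upper-quartile scaling left all these counts and genes as they were, as did no filter at each day. At a mean of at least 5 CPM only 3 members were tested and 0 and 2 were called at day 9 and day 13. limma-voom called 12 at day 9 and 3 at day 13. Each day fitted alone gave 15 at day 9 and 2 at day 13, or 14 and 3 with the genes tested held fixed. Thinning day 9 to the day 13 depth left 2 at day 9 with either set of genes. The difference between the days was called for 1 member with no filter and for 4 in DESeq2. Holding the genes tested fixed was added after seeing the data, because leaving out a library moved the members tested to 23 or 38. Leaving out 1 library gave 2 to 9 members at day 9 (3 to 9 held fixed), 3 to 5 at day 13 (3 to 6) and 0 to 1 for the difference. Filtered anew, those fits called 6.86% to 14.5%, 14.9% to 25.5% and 1.00% to 3.29% of all genes.

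For the further cell cycle genes, 12 calls at day 9 became 20 in limma-voom, 7 with the replicate block, 7 with thinned counts, 23 with the day alone and 5 to 14 without 1 library. The 18 at day 13 became 11 at a mean of at least 5 CPM, 11 in limma-voom, 11 with the day alone and the genes held fixed, and 13 to 19 without 1 library. The cause of these shifts was not tested, except that filters and left-out libraries change the genes or samples tested. Upper-quartile scaling moved the split of all genes called for the difference to 0.604% higher and 2.04% lower, against 0.898% and 1.66%.

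Replicate numbers were not treated as a pairing, which the labels do not state. Deviations of same-numbered libraries correlated at −0.132 to 0.241, and not every library correlated best with its own number. With so few libraries these values cannot decide whether a pairing existed. With the replicate block, 6 members were called at day 9, without Cdkn2c (adjusted p = 0.052), 4 at day 13, without Cdkn2c and Mad2l1, and 0 for the difference. That fit called 8.53%, 18.8% and 0.821% of all genes. Over all alternatives, named genes that were called kept the call in 1683 values and lost it in 248, others gained a call in 105, 221 values not called in either setting changed sign, and 0 called values reversed. At day 13, 21 members had a median under 10 counts, which limits precision.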
